A study of Mus musculus with 8 samples.

Results

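Small nucleolar RNAs (snoRNAs) were taken as every row that the deposited expression table gives the biotype snoRNA, 231 of 19673 genes. RNA had been sequenced from CD8 T cells of Py8119 tumours, which arise from injected cells of a mouse mammary cancer line, in hosts whose Mtdh gene (metadherin) was knocked out (KO) or wild type (WT). Each host genotype had 4 biological replicates, called here KO or WT library 1 to 4, and the sort kept live CD45+CD3e+CD8+ cells. The labels give no strain, age or sex of the hosts, and they do not say whether the deletion spans all tissues, so the T cells sorted from KO hosts are described only by their host's genotype. Nothing in the labels says what the replicate numbers share, and the series title sets the work beside lipid metabolism of the host liver.

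SnoRNAs are short, stable RNAs of the nucleolus that guide the chemical marking and cutting of ribosomal RNA. Box C/D snoRNAs (Snord genes) carry a C box near the 5′ end and a D box near the 3′ end and direct 2′-O-methylation through the methyltransferase fibrillarin, while box H/ACA snoRNAs (Snora genes) end in an ACA box and direct pseudouridylation through the pseudouridine synthase dyskerin. In mammals most of them are cut from introns of host genes, many of which code for ribosomal proteins or are noncoding RNAs of the Snhg family, while a few, such as U3, have promoters of their own and act in the cleavage of the ribosomal RNA precursor rather than as modification guides.

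The 231 rows comprised 64 with Snord symbols, 25 with Snora symbols, 16 that carry only a family name such as U3, SNORD14 or SNORA2C, 1 with the symbol Scarna10, and 125 without a family name, of which most are numbered Gm. A mean normalized value of at least 10 over the 8 libraries was reached by 171 of them, namely 52 Snord, 18 Snora, 15 family-name, 1 Scarna and 85 unnamed rows, and 126 of the 171 were above 0 in all 8 libraries. All of the remaining 60 rows were above 0 in at least 1 library.

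The sequences of 7 snoRNAs on which the results turn are given 5′ to 3′, as read from GENCODE M21 transcripts (GRCm38) matched by gene identifier, and their positions are the mm39 positions of the deposited table. They are 2 abundant members longer than 170 bases (Snord3a, Snord17), 2 short box C/D members whose values differed plainly between libraries of different numbers (Snord32a, Snord87), the box C/D member with the smallest p for host genotype (Snord15b), and 2 abundant members of box H/ACA type, by symbol or by its letters (Snora61, Gm25117). Capitals mark TGATGA within the first 25 bases together with CTGA within the last 25, or ACA exactly 3 bases before the 3′ end, searched on the strand of the RNA only. Snord3a has no capitals because TGATGA was not found in that window.
Snord3a, chr10:40134463-40134675, plus strand: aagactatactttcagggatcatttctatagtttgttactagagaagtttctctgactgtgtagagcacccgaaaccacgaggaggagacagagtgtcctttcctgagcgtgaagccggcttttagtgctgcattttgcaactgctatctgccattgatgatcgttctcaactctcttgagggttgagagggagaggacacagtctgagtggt
Snord17, chr2:144107899-144108136, minus strand: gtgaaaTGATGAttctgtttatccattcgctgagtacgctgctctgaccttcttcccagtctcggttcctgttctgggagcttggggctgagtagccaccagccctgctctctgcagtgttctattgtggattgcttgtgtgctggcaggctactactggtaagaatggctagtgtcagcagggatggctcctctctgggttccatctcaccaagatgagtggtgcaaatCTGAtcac
Snord32a, chr7:44776806-44776888, minus strand: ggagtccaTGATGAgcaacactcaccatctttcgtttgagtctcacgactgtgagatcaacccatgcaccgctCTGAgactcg
Snord87, chr1:10012688-10012774, minus strand: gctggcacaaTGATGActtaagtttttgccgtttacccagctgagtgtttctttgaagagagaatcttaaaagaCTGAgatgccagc
Snord15b, chr7:99128770-99128914, minus strand: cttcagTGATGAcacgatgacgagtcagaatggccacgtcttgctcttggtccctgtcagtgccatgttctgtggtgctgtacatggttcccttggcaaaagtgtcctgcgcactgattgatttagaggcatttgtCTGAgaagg
Snora61, chr4:132037551-132037680, plus strand: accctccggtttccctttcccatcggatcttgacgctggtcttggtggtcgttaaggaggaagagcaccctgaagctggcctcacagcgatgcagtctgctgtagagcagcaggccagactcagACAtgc
Gm25117, chr10:111317354-111317497, plus strand: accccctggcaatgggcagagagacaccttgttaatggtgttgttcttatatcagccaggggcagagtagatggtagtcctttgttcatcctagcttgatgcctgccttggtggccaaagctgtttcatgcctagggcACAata

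The letters sort the unnamed rows too. A sequence was found for 192 of the 231 rows, and each was as long as the listed gene. Both box letters (TGATGA and CTGA) stood in their windows in 37 of 61 Snord sequences (60.7%) and in 0 of 25 Snora sequences, and the ACA end stood in 22 of 25 Snora sequences (88%) and in 0 Snord sequences. Among 105 unnamed sequences, 35 held both C/D letters and 42 the ACA end, so that the unnamed rows contain both types. Of all 1507 snoRNA transcripts in the same annotation, 20.7% held both C/D letters and 18.3% the ACA end. These matches describe letters, and a member without them may still belong to either type.

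The libraries differed in ways that bear on every value below. Column sums were 21360583 to 26059429, and the estimated depth was 16400000 to 29600000 reads, or 13300000 to 23400000 with chromosome 11 U3, which is entered in 8 rows, counted once. Of genes that are no small RNAs and averaged between 20 and 500 over the remaining libraries, 18.9% to 33.0% were at 0 in a library numbered 1 or 2 and 7.56% to 14.3% in one numbered 3 or 4, and 10 to 27 against 0 to 12 of the 171 tested snoRNAs were at 0. Mtdh itself was lower in KO libraries (3905 ± 1179, SD, n = 4) than in WT libraries (9113 ± 2699, SD, n = 4), with a log2 fold change of -1.23 (SE 0.25, adjusted p = 0.0400, limma with Benjamini-Hochberg adjustment). Over 20 other settings the fold change of Mtdh stayed between -1.38 and -1.04, but 7 of them lost the call, with an adjusted p of up to 0.241 by limma. The 12 CD8 T cell markers were all measured and above 0 in every library, but so were 12 macrophage and monocyte markers, whose summed normalized value (113139 to 288242) exceeded that of the T cell markers (7844 to 45476) in every library. In bulk RNA, fewer cells of a type and less RNA per cell cannot be told apart.

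U3, the snoRNA that pairs with the ribosomal RNA precursor and is needed for its early cleavage, dominated the class. On chromosome 11, within Tex14 on mm39, 8 rows stand for 4 U3 positions that are each annotated under more than 1 identifier, and their values agreed within 0.433% in every library. Such agreement would arise if the same reads were entered in full in each row, or if they were divided evenly among the rows. The values cannot tell these apart, and counting chromosome 11 U3 once, above and below, takes the first case. Were the reads divided, shares and depths counted that way would be too low. The row at chr11:87334063-87334277 read 742279, 891835, 581535 and 688942 in KO libraries 1 to 4 and 796270, 919290, 833739 and 570875 in WT libraries 1 to 4. The groups overlapped throughout, and the lowest value was that of WT library 4. Snord3a, another U3 gene on chromosome 10, read 319678, 487872, 255026 and 303135 in KO libraries and 300042, 320767, 331753 and 339641 in WT libraries. An unnamed row nearly repeats Snord3a, with the same log2 fold change (0.038, SE 0.316). It stays in wherever only chromosome 11 U3 is counted once. Copies of U3 are alike in sequence, so how reads divide between these loci is uncertain.

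The share of each library that snoRNAs appear to take was largely a count of U3. All snoRNA rows summed to 28.3%, 32.4%, 25.6% and 27.8% of the column in KO libraries 1 to 4 and to 30.4%, 33.0%, 33.0% and 25.6% in WT libraries 1 to 4. The 8 chromosome 11 rows were 79.4% to 88.9% of that sum. With chromosome 11 U3 counted once, in the numerator and the denominator, the share was 8.01% to 11.02%. Snord3a and the row that nearly repeats it are both still counted there. KO libraries averaged 9.14% ± 1.31 (SD, n = 4), and the WT average was 9.75% ± 0.67 (SD, n = 4), a difference within the spread of either group. Rows of up to 170 bases, which leave out U3 and Snord17, were 0.455%, 0.418%, 0.858% and 1.02% of the column in KO libraries and 0.371%, 0.483%, 1.02% and 1.42% in WT libraries. For these shorter RNAs, every library numbered 3 or 4 stood above every library numbered 1 or 2, in both genotypes.

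**Figure D1:**
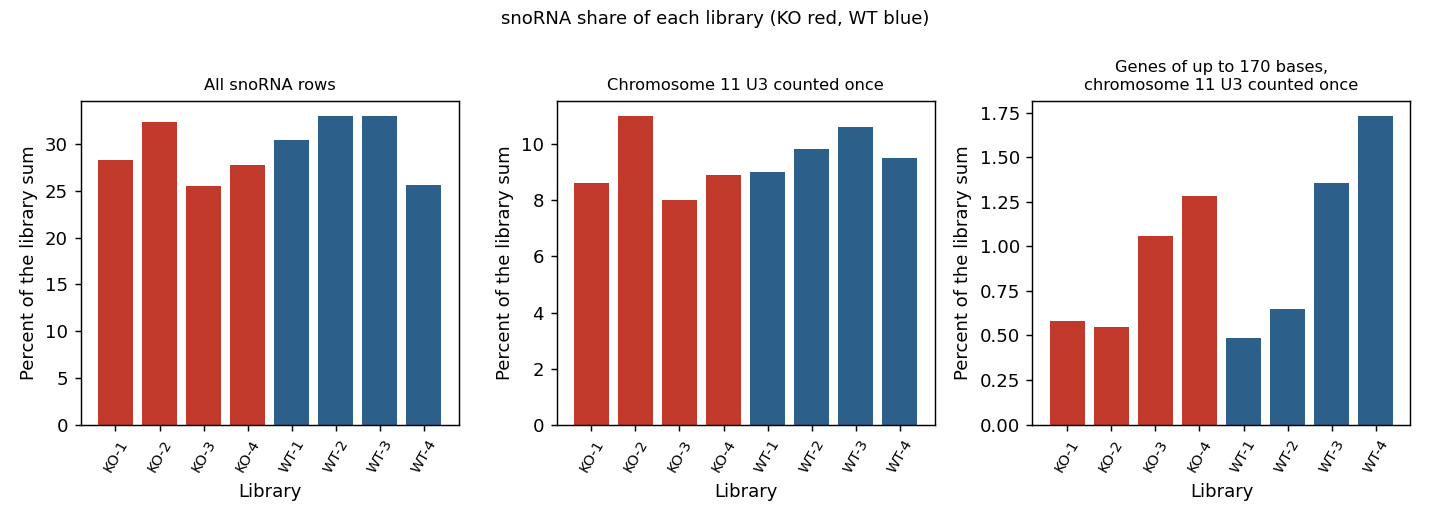
Bars give the summed normalized value of snoRNA rows as a percent of each library's sum, for KO (red) and WT (blue) libraries 1 to 4, for all rows, with chromosome 11 U3 counted once, and for genes of up to 170 bases with that U3 counted once. In the third panel the libraries numbered 3 and 4 are all higher than those numbered 1 and 2, whereas the first 2 panels show no such split.

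Levels per base of gene length spanned orders of magnitude. Whether reads scale with length for RNAs this short was not tested, so the ranks describe the normalized values only. The chromosome 11 U3 row had 3503 normalized units per base, Snord3a 1560, Snord17 625, Gm25878 205, Gm25117 156 and Snord12 99.4. Among rows with Snora symbols the highest were Snora61 at 50.4, Snora30 at 14.3 and Snora7a at 4.09, all under Gm25117, an unnamed row with the ACA end. The median over tested rows was 3.30 units per base for Snord, 0.556 for Snora and 1.67 for unnamed genes. Only 8 of 18 tested Snora rows were above 0 in all 8 libraries, against 44 of 52 Snord rows, so values of 0 are common among the box H/ACA members.

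Host genotype gave no snoRNA that passed the test. Of 171 tested rows, 0 were higher and 0 lower in KO at an adjusted p under 0.05 (limma with Benjamini-Hochberg adjustment over all 16120 tested genes), where 0.211% of all tested genes were called higher and 0.0248% lower. At an unadjusted p under 0.05, 1 snoRNA was lower and 0 were higher, against backgrounds of 3.49% and 3.21% of all tested genes. The direction was uneven: 134 rows had a negative and 37 a positive log2 fold change (127 and 37 with chromosome 11 U3 counted once). Over all tested genes 9128 were negative and 6992 positive. The snoRNA median was -0.31, beside -0.12 for all tested genes. Quantile scaling of the libraries gave 116 negative and 55 positive snoRNA rows. The class medians were -0.31 for Snord, -1.16 for Snora, -0.26 for unnamed and -0.37 for family-name rows.

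The median over all snoRNA rows depended on single libraries. Without WT library 4 it was 0.06, with 76 rows lower and 91 higher in KO, and without WT library 1 it was -0.71. With each library left out in turn, the Snord median ran from -0.69 to 0.07, while the Snora median stayed negative, from -1.53 to -0.70. Under the other planned settings the Snora median ran from -1.28 to -0.55. Tested snoRNAs at 0 numbered 6 to 27 in KO and 0 to 20 in WT libraries, and 10 of 18 tested Snora rows were at 0 somewhere. The part of these zeros in the medians was not tested. Over all snoRNA rows, the median difference between KO and WT was -0.07 within libraries 1 and 2 and -0.58 within libraries 3 and 4. A test of whether the genotype difference varied between these pairs of numbers called 0 of 171 rows by limma (smallest adjusted p = 0.908, Benjamini-Hochberg adjustment) and gave 4 rows at an unadjusted p under 0.05, a threshold that 4.47% of all tested genes passed. Fitting libraries 3 and 4 alone also called 0 rows, with 10 of 177 at an unadjusted p under 0.05, where 5.06% of all genes in that fit were. Libraries 1 and 2 alone gave 0 calls and 0 of 155 at an unadjusted p under 0.05 by limma, where 4.85% of all genes were. Summed CD8 T cell markers ran from 20905 to 45476 in KO and from 7844 to 26968 in WT libraries, and summed macrophage markers from 113139 to 245763 and from 181822 to 288242. On average 1 of 12 CD8 T cell markers and 11 of 12 macrophage markers were lower in KO, as were 8 of 8 fibroblast, 3 of 3 tested red cell and 3 of 3 endothelial markers. Among NK cell, B cell and epithelial tumour cell markers tested, 0 of 3, 1 of 2 and 1 of 4 were lower in KO. Summed red cell markers were 0 to 1.30 in KO and 101 to 256 in WT libraries. The part of these markers in the snoRNA values was not tested.

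**Figure D2:**
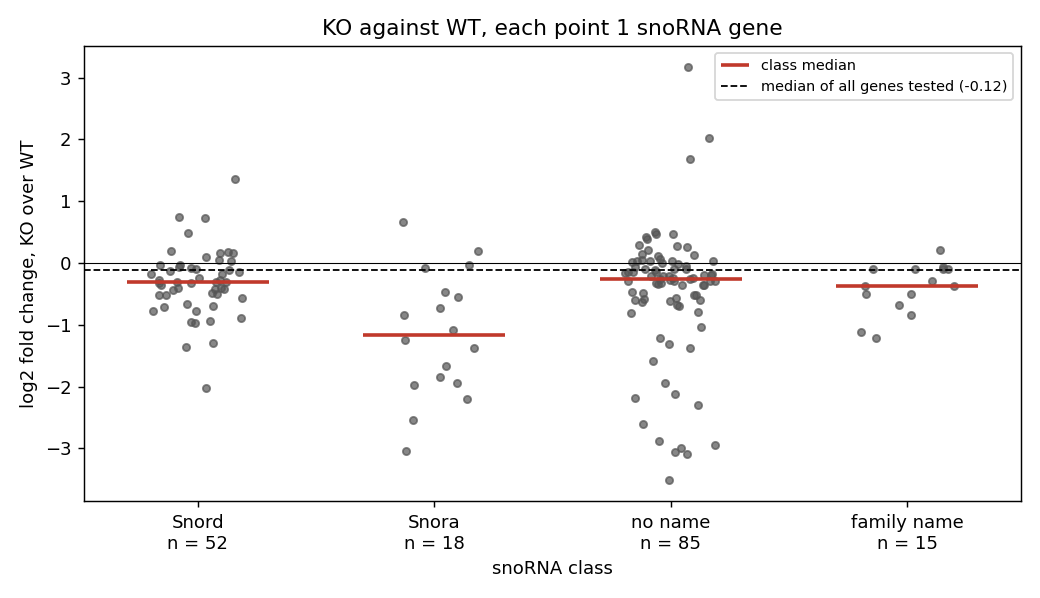
Each point is the log2 fold change, KO over WT, of 1 tested snoRNA row, grouped by kind of name (Scarna10 is left out), with red bars at the class medians and a dashed line at the median of all tested genes. Most points lie under 0 in each group, and no point passed the test.

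Snord15b, a box C/D snoRNA in an intron of the ribosomal protein gene Rps3, had the smallest p. It read 915, 2357, 1910 and 1593 in KO libraries 1 to 4 and 2350, 2645, 1773 and 3816 in WT libraries 1 to 4. KO libraries were lower on average, but WT library 3 lay under 2 of the KO libraries. The log2 fold change was -0.67 (SE 0.30, unadjusted p = 0.0360, adjusted p = 0.730, limma with Benjamini-Hochberg adjustment). Its neighbour in the same host, Snord15a, read 1661, 2819, 1094 and 1595 in KO and 1271, 2233, 1241 and 2788 in WT libraries, a log2 fold change of -0.07. The host Rps3 differed by -0.13 on the log2 scale.

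Only 2 of 171 rows had all KO libraries below all WT libraries, where 2.07% of all tested genes did, and 0 had all KO above all WT, where 2.01% did. Both are unnamed and hold the ACA end letters. Gm22154, in Pabpc4, read 42.5, 1.10, 97.4 and 49.7 in KO and 110, 104, 389 and 136 in WT libraries. Gm23451, in the topoisomerase gene Top2a, read 13.4, 0, 0 and 10.99 in KO and 14.8, 20.9, 137 and 18.4 in WT libraries. For each the exact two-sided permutation p was 0.0286, the smallest that 4 against 4 libraries can give, and limma's adjusted p was 0.770 and 0.771 (Benjamini-Hochberg adjustment). In both genes WT library 3 was far above the other WT libraries, and the fold change of Gm22154 went from -2.60 to -1.40 without KO library 2.

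The other rows among the 10 smallest p-values were Gm22786, Gm26397, Gm23442, Gm25791, Gm24044, Gm26448 and Snora61, with log2 fold changes from -3.52 (Gm22786) to 3.18 (Gm25791). Most were low and at 0 in some libraries. Gm23442, in Prrc2a, was at 0 in all KO libraries and in WT libraries 2 and 3, with 93.0 and 35.5 in WT libraries 1 and 4. Gm25791, in Taf1d, read 6.89, 139, 739 and 636 in KO libraries and 0, 0, 287 and 271 in WT libraries, so its values followed the library number more closely than the genotype. Gm26397, in Tomm20, read 955, 1374, 859 and 1106 in KO and 1316, 1303, 1145 and 2644 in WT libraries (log2 fold change -0.51, SE 0.30), and without WT library 4 the fold change was -0.24.

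SnoRNAs read lower in the libraries numbered 1 and 2 than in those numbered 3 and 4, in KO and WT alike. Values of libraries 1 and 2 were set against those of libraries 3 and 4, with 2 KO and 2 WT libraries on each side, and since this split was proposed with the values in view it is described without a test. In 89 of 171 rows (52.0%) every value of libraries 1 and 2 lay below every value of libraries 3 and 4, where 4.2% of all tested genes did, and in 0 rows did they lie above, where 2.13% did. In libraries 1 and 2, 145 rows were lower on average and 26 higher (145 and 19 with chromosome 11 U3 counted once). Of all tested genes, 9573 were lower and 6547 higher. The median snoRNA difference, libraries 1 and 2 minus 3 and 4, was -1.67 on the log2 scale, beside -0.20 over all tested genes. It was -1.46 among KO libraries alone and -1.82 among WT libraries alone. Under quantile scaling, which moved the median of all genes to -0.04, the snoRNA median was -1.35. With that scaling 67 snoRNA rows did not overlap, with libraries 1 and 2 lower, where 519 of all 16120 tested genes did not.

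**Figure D3:**
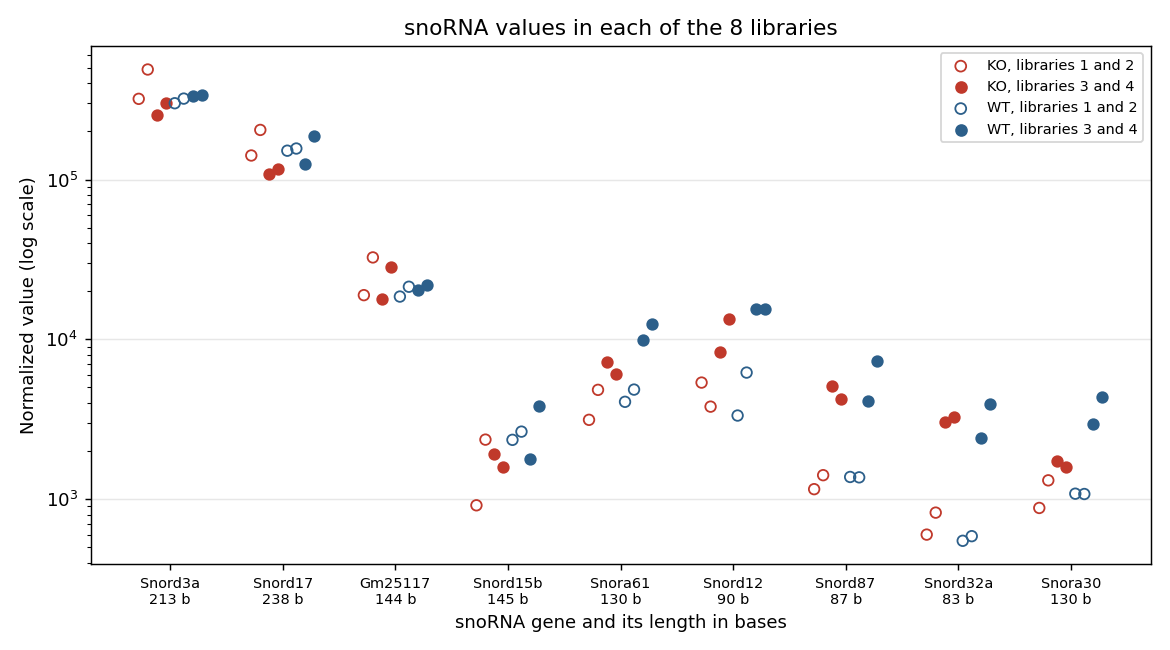
Points are the normalized values (log scale) of 9 snoRNA genes in each library, KO red and WT blue, open for libraries 1 and 2 and filled for libraries 3 and 4, with the gene length under each name. For Snord87 and Snord32a all filled points lie above all open ones, while for Snord3a, Snord17, Gm25117 and Snord15b they intermingle.

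Abundant short box C/D guides showed the split most plainly. Snord32a, in the ribosomal protein gene Rpl13a, read 600, 823, 3028 and 3244 in KO libraries 1 to 4 and 549, 587, 2414 and 3949 in WT libraries 1 to 4. All values of libraries 3 and 4 exceeded all of libraries 1 and 2, by 4.94-fold in the mean. Snord87, in the noncoding host Snhg6, read 1155, 1412, 5103 and 4251 in KO and 1377, 1369, 4138 and 7290 in WT libraries, a 3.91-fold difference. For these genes the log2 fold change between genotypes was 0.16 (SE 0.58) and -0.17 (SE 0.49).

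Box H/ACA members moved in the same direction, with less separation. Snora61, in Snhg12, read 3136, 4829, 7209 and 6050 in KO libraries and 4065, 4847, 9847 and 12421 in WT libraries. All values of libraries 3 and 4 were the higher ones, by 2.11-fold in the mean. Snora30 read 881, 1311, 1727 and 1580 in KO and 1082, 1077, 2935 and 4327 in WT libraries, 2.43-fold. Snora7a, in Rpl32, read 330, 400, 625 and 406 in KO and 460, 64.5, 816 and 1475 in WT libraries, and its sides overlapped, since WT library 1 exceeded KO library 4. By symbol, 35 of 52 Snord and 4 of 18 Snora rows did not overlap, with medians of -1.87 in both classes. By letters, 47 of 61 rows with both C/D boxes and 8 of 38 with the ACA end did not. Rows with the ACA end were lower in mean value (median 53.2 against 492) as well as longer.

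The difference was also set beside length. The bounds used here, 100 and 170 bases, were chosen after the values had been seen. Of 96 rows of up to 100 bases, 71 did not overlap, with a median difference of -1.78, and their summed value was 2.83-fold higher in libraries 3 and 4. Of 57 rows over 100 and up to 170 bases, 18 did not, with a median of -1.61 and a summed value 1.42-fold higher. All 18 rows over 170 bases, which hold 10 distinct sets of values, overlapped. Their median was 0.32 and their summed value 0.80 times that of libraries 1 and 2, both chiefly from U3 rows. Of the 18, 13 were higher in libraries 1 and 2, among them the 8 chromosome 11 U3 rows, Snord3a and Snord17. The 5 lower ones were Snora74a (-3.56), Scarna10 (-1.37), Snora73a (-0.50), Gm23547 (-0.45) and Gm26448 (-0.28). Across the 164 rows that remain with chromosome 11 U3 counted once, Pearson's r between length and difference was 0.18 (Spearman's rho 0.19), and across the 153 rows of up to 170 bases it was 0.01 (rho 0.06). Both are descriptions across genes, which share the libraries.

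**Figure D4:**
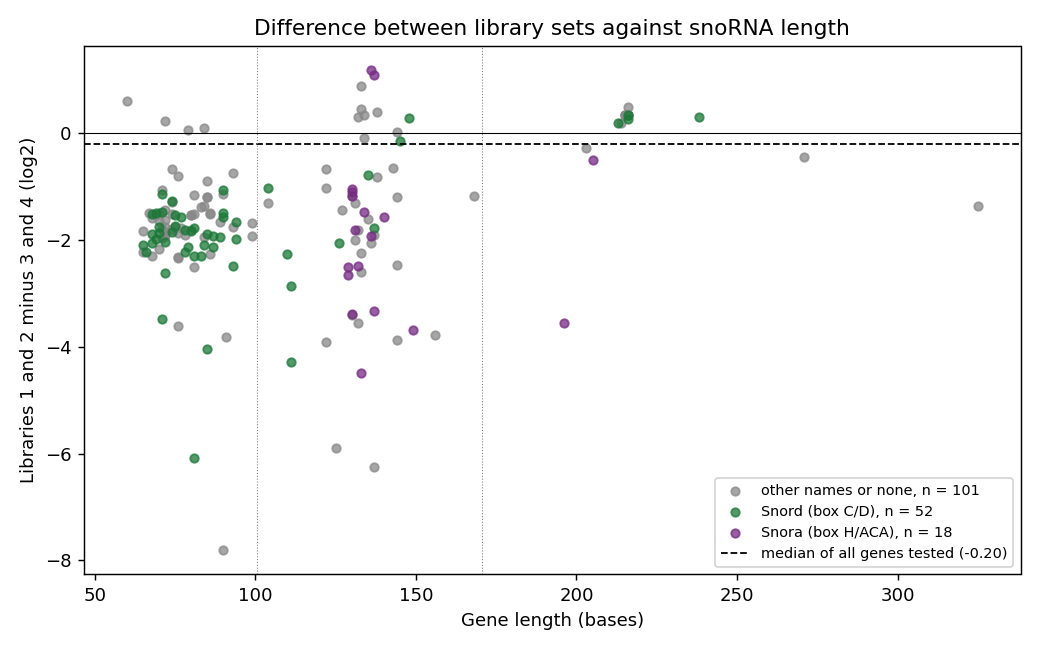
Each point is 1 tested snoRNA row, with gene length in bases on the horizontal axis and the mean log2 value of libraries 1 and 2 minus that of libraries 3 and 4 on the vertical axis. Dotted verticals stand at 100 and 170 bases and the dashed line at the median of all tested genes (-0.20). Most rows of up to 170 bases lie near -1.7, and most longer ones, chiefly U3 rows, lie just above 0.

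Abundant members showed the split as well. Among the 46 rows with a mean of at least 1000, 29 did not overlap (63.0%), and likewise 139 of all 3515 tested genes of that mean did not (3.95%), in each case with libraries 1 and 2 lower. Among the 26 of these of up to 100 bases, 24 did not, and libraries 3 and 4 exceeded libraries 1 and 2 by 1.69-fold to 4.94-fold. Snord12, in Zfas1, read 5362.5, 3792, 8360 and 13497 in KO libraries and 3335, 6194, 15415 and 15583 in WT libraries. Gm25878, in the same host, had the smallest of these differences, 1.69-fold, and its sides overlapped.

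A few abundant members of intermediate or greater length did not follow. Gm25117, an ACA-ended snoRNA in an intron of Nap1l1, read 18898, 32545, 17810.5 and 28258 in KO libraries and 18518, 21330.5, 20443 and 21720 in WT libraries, with a difference of 0.03. Snord15a, Snord15b and Gm26397 differed by 0.28, -0.15 and -0.09. Snord17, a long box C/D member in an intron of Snx5, read 141333, 204273, 108540 and 116931 in KO libraries and 151455, 156261, 125213 and 186656 in WT libraries, with a difference of 0.30. None of these 5 genes separated either the library numbers or the genotypes.

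The extremes among rows with a mean of at least 50 were mostly members that libraries 1 and 2 nearly lacked. A SNORD14-family row in the heat shock cognate gene Hspa8 was under 1 in KO and WT libraries 1 and 2, and read 120, 190, 297 and 720 in KO libraries 3 and 4 and WT libraries 3 and 4. Snord96a, in Rack1, was at 0 in KO library 1 and WT libraries 1 and 2, at 29.1 in KO library 2, and at 135, 91.0, 127 and 395 in the others. Gm24201, in Eif4a2, read 33.3, 3.79, 0.202 and 0.0548 in KO and WT libraries 1 and 2, against 195, 231, 382 and 147. In the other direction the differences were small: 0.61 for Gm23212 in Gas5, 0.40 for SNORA2C in Kansl2, 0.34 for chromosome 11 U3 and 0.30 for Gm22270 in Rpl5. For each of these 4 the libraries overlapped.

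KO and WT libraries on the same side of the split deviated alike, which restates the split rather than adding to it. Each KO library's deviation from the KO mean was correlated with each WT library's deviation from the WT mean, over 164 rows. The correlation was 0.09 to 0.30 for the 8 pairs within libraries 1 and 2 or within 3 and 4. For the 8 pairs across them it was -0.29 to -0.10. The rows are those on which the split was proposed. Deviations from a mean also sum to 0, so positive values within a side bring negative ones across. Several other values moved with the same split. The libraries with more mid-level genes at 0, given above, are libraries 1 and 2. All 12 CD8 T cell markers were lower on average in libraries 1 and 2 (median -1.36), with sums of 7844 to 32717 against 22916 to 45476. Of these 12, 2 did not overlap, where 4.2% of all tested genes did not. Macrophage markers summed to 150809 to 288242 against 113139 to 237080. Of NK cell markers 3 of 3 were lower in libraries 1 and 2 (median -2.06), and of fibroblast markers 1 of 8. Also lower there on average were 4 of 12 macrophage, 3 of 3 endothelial and 2 of 2 tested B cell markers. Red cell and epithelial tumour cell markers had 2 of 3 and 2 of 4 tested ones lower. The part of these values in the snoRNA difference was not tested, and the labels give no preparation date or run that would name what the numbers share.

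Other small RNAs were read in the same way. Small nuclear RNAs had a median difference of -0.82, with 7 of 18 tested rows not overlapping, and 6 tested scaRNA genes had a median of -3.20, with 1 of 6. Most scaRNA rows were low, and the most abundant, Gm22009, differed by 0.40 in the other direction, so that the summed scaRNA share was 0.665% ± 0.042 (SD, n = 4) in libraries 1 and 2 and 0.569% ± 0.162 (SD, n = 4) in libraries 3 and 4. Protein-coding genes had a median of -0.13, and 404 of 12601 (3.21%) did not overlap in that direction. No test compared these classes with snoRNAs.

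Most snoRNAs lie inside another gene, and host values were set beside theirs. In the deposited table, 213 of 231 members lie on the same strand within a longer gene, 122 hosts in all, of which 102 are protein-coding and 20 lncRNA genes. In the GENCODE M21 basic annotation, 166 members lie in an intron of the host, 12 overlap an exon and 35 could not be placed. The strand setting of the authors' counting is not given in the sources used here, so reads of a host's unspliced RNA across a snoRNA cannot be told apart from the snoRNA itself. Of 119 tested hosts, 0 were called in KO against WT by limma, and 2 were higher and 0 lower at an unadjusted p under 0.05, where 3.21% and 3.49% of all tested genes were, with a median log2 fold change of -0.07. Between library numbers the hosts had a median difference of -0.15, and 14 of 119 did not overlap, with libraries 1 and 2 lower, where 4.2% of all tested genes did not.

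**Figure D5:**
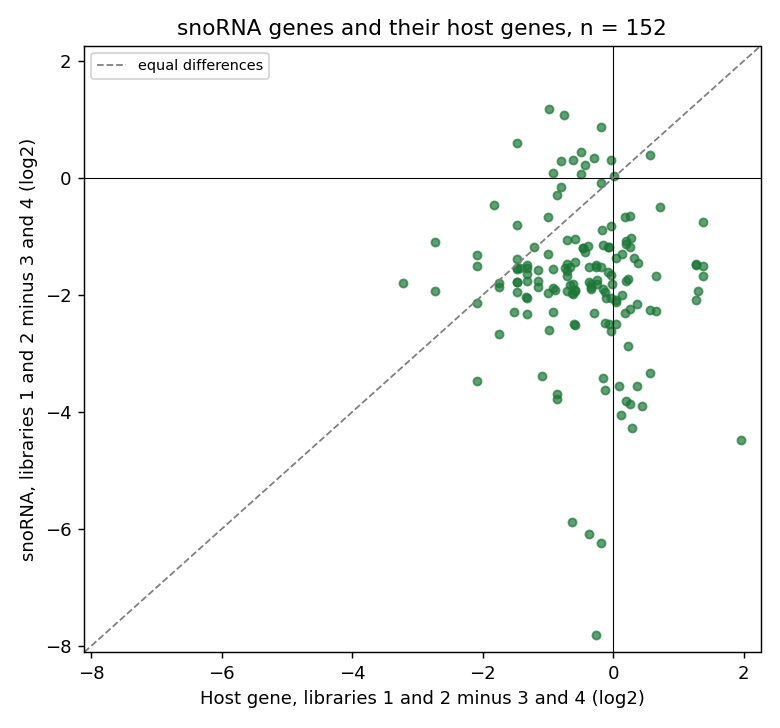
Each of 152 points is a tested snoRNA row with a tested host, placed by the log2 difference of the host (horizontal) and of the snoRNA (vertical) between libraries 1 and 2 and libraries 3 and 4. Most snoRNAs lie under the dashed line of equal differences, and the cloud has little slope (Pearson's r -0.10).

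SnoRNA and host differences showed little relation across genes. Over 152 pairs of a tested snoRNA and its tested host, Pearson's r of the difference between library numbers was -0.10 (Spearman's rho -0.09), that of the genotype difference was -0.03 (rho -0.03), and that of the mean log2 level was 0.03 (rho 0.04). Pairs share libraries, and several snoRNAs share 1 host. The 42 tested members in 25 ribosomal protein genes had a median difference of -1.74, their hosts -0.81. The 28 in Snhg genes, Gas5 and Zfas1 had -1.71, their hosts -0.87, and the 7 in translation initiation factor genes had -1.73, their hosts 0.08.

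Several hosts hold clusters of snoRNAs, and some of these hosts moved with their members while others did not. In Snhg1, 5 of 6 tested members lay lower in libraries 1 and 2 without overlap, and the host itself differed by -1.32. In Gas5, a noncoding RNA known for its snoRNA introns and growth arrest, 5 of 8 did, with the host at -1.47. In Hspa8 and Nop56, 3 of 3 did in each, whereas the hosts differed by -0.26 and -0.04. In Zfas1 the members Gm23201, Gm25878 and Snord12 differed by -1.67 to -0.75 while the host differed by 1.37 in the other direction.

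The snoRNAs of the Rpl13a introns, which have been linked to the cellular response to lipid overload and oxidative stress, are of interest in a study set beside lipid metabolism. By position 4 rows were found, namely Snord32a, SNORD33, Snord34 and Snord35a. Snord34 read 258, 151, 668 and 591 in KO libraries and 158, 191, 588 and 926 in WT libraries, and Snord35a read 183, 121, 434 and 485 in KO and 182, 287, 459 and 923 in WT libraries. Both resembled Snord32a in being low in libraries 1 and 2 of either genotype. SNORD33 was low throughout, from 2.86 to 47.9. Their log2 fold changes between genotypes ran from -0.56 (Snord35a, SE 0.61) to 0.16 (Snord32a, SE 0.58), and 0 of 4 were called by limma or had an unadjusted p under 0.05.

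Of 15 snoRNA symbols listed for roles in ribosomal RNA cleavage or acetylation rather than in guided methylation or pseudouridylation, 4 named rows of the table. Snord118, needed for maturation of large-subunit ribosomal RNA, read 979, 402, 799 and 830 in KO and 809, 448, 1986 and 975 in WT libraries. Snora73a, which acts in small-subunit processing, read 108, 129, 68.8 and 207 in KO and 116, 279, 381 and 327 in WT libraries. Snord22 and Snord13 were lower, at 0 to 323 and 21.4 to 79.6. All 4 had a negative log2 fold change, from -2.02 (Snord22, SE 1.71) to -0.11 (Snord13, SE 1.499), and none passed the test. Their groups overlapped in each case. A negative sign was common, at 134 of all 171 tested snoRNA rows. U3, which also acts in precursor cleavage, is not among these 4 rows. Its log2 fold change was 0.038 (SE 0.316) for Snord3a and -0.10 (SE 0.38) for the chromosome 11 rows.

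The genes that build snoRNPs and process snoRNAs did not pass the genotype test either. By limma, 0 of 4 box C/D core protein genes, 0 of 4 box H/ACA core protein genes, 0 of 9 tested assembly factors, 0 of 13 processing and transport genes, 0 of 13 tested RNA polymerase I genes, 0 of 11 Snhg, Gas5 and Zfas1 host genes and 0 of 2 ribozyme genes (Rpph1, Rmrp) were called, and none of them had an unadjusted p under 0.05. Nop58, a scaffold of box C/D particles, had 1236 ± 116 over KO libraries against 1274 ± 119 over WT libraries (SD, n = 4 each). Its partner Nop56 had 433 ± 266 and 353 ± 95, and Dkc1, the dyskerin gene, 453 ± 245 and 482 ± 119. Fbl, the fibrillarin gene, was above 0 in only 3 libraries, with 134 in KO library 3 and 79.7 in WT library 3. The closest to the threshold in these lists was Coil, the coilin gene of Cajal bodies, at 42.3 ± 55.5 in KO and 144 ± 40 in WT libraries (log2 fold change -3.75, SE 1.83, unadjusted p = 0.0541, adjusted p = 0.750, limma with Benjamini-Hochberg adjustment).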

How the data were processed

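Bulk RNA-seq of sorted tumour CD8 T cells was analysed in 8 libraries, 4 per host genotype. The deposited table holds a signal per gene and library, estimated reads that the authors normalized with DESeq2, as the table's name says. Per the labels' protocols, total RNA was column-extracted, depleted of ribosomal RNA and fragmented before library construction. Partek, DESeq2, mm39 and STAR 2.7.8a are listed, without roles, per the submitters' processing notes. Values were not whole reads for enough genes, so no count model was run. Positive values under 0.01 (2526) were read as 0.

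Values were used as log2(value + 1). The 16120 genes averaging at least 10 entered 1 limma fit (version 3.58.1, R 4.3.3, eBayes with trend) of KO against WT, two-sided, with Benjamini-Hochberg adjustment over all of them and a threshold of 0.05. An exact permutation over 70 arrangements was used for single genes. Tables were prepared with Python 3.11.15, pandas 2.3.3 and numpy 2.4.6. The fit was tested on simulated, normally spread values. Changes were put only into genes averaging at least 1000, a mean that 46 of the 171 tested snoRNA rows reached. Recovery of changes in sparser rows was therefore not examined. Precision is set by the spread between 4 biological replicates and by sparse detection. Counting intervals were not given, since whole reads were not recovered.

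Named genes were the 10 snoRNAs with the smallest p, the 3 with the highest value per base among Snord, Snora and other rows, the 4 with the largest difference between library numbers in each direction at a mean of at least 50, and the members of snoRNA lists. Genes chosen after their values were seen are Snord15a, Snord87 and, among the pathway genes, Nop58, Nop56, Dkc1, Fbl and Coil. The members, lists and splits were chosen with earlier results of these data known. Hosts are genes over 500 bases that contain the snoRNA on its strand, the most abundant where several did. Alternatives covered the pseudocount, minimum mean, scaling, a replicate block, weights and each library left out.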

Additional observations from a re-analysis of the deposited data

Results flagged for a closer look

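For the 24 snoRNAs named by rule and for the snoRNA share of all rows and of rows up to 170 bases, the 4 libraries of each genotype were examined for a library far from the other 3. Of 52 groups so examined, 6 had such a library. The cutoff flags about 1 in 20 groups of normally spread values. That rate need not hold here, since some values were skewed or at 0 and the genes were picked from these data. In KO libraries, Gm26448 stood at 55.85 in library 3 against 0 to 7.23 in the others. Gm22786 stood at 14.29 in KO library 3 and at 0 in the other 3. SNORA2C stood at 104.6 in KO library 2 against 18.97 to 30. In WT libraries, Gm23451 stood at 136.8 in library 3 against 14.81 to 20.91, Gm22154 at 389.2 in library 3 against 104.1 to 136.4, and Gm26397 at 2644 in library 4 against 1145 to 1316. Gm23451 and Gm22154 are the 2 genes whose KO and WT libraries did not overlap. With each library left out in turn, their log2 fold changes ran from -3.76 to -2.38 and from -3.25 to -1.40, and that of Gm26397 from -0.65 to -0.24.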

How the results depend on the processing

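In every alternative run, 0 snoRNAs, 0 hosts and 0 snoRNP or processing genes were called between genotypes by limma, with 0 to 10 snoRNAs at an unadjusted p under 0.05. Of all genes in these fits, 4.58% to 9.68% had an unadjusted p under 0.05 by limma. The median snoRNA log2 fold change ran from -0.71 to 0.06 when 1 library was left out, and from -0.36 to -0.16 under the other planned settings. Same-numbered KO and WT libraries correlated by 0.02 to 0.08 over all genes, too weakly to be taken as pairs, and KO library 1 correlated more with WT library 2 (0.07) than with WT library 1. All pairs within libraries 1 and 2 or 3 and 4 correlated positively (0.02 to 0.10) and all pairs across them negatively (-0.09 to -0.02). With a replicate block 0 snoRNAs were called, with 2 of 171 at an unadjusted p under 0.05 by limma, where 6.83% of all genes were. Calls over all genes went from 38 to 0. The median over snoRNP and processing genes was -0.165, with -0.41 to -0.089 when 1 library was left out, lowest without KO library 3. The count of rows lower in libraries 1 and 2 without overlap ran from 88 to 106 with 1 library left out and from 67 to 94 under other settings, and was 29 with only rows of a mean of at least 1000, fewer rows by construction. Over all tested genes this count was 677 of 16120 in the main fit. It rose to between 856 and 1122 of 15954 to 16151 genes with 1 library left out, since fewer libraries overlap less easily. Under the other settings it ran from 428 of 12115 genes (minimum mean of 50) to 788 of 16125 (scaling without small RNAs). The median difference ran from -1.84 to -1.35. The snoRNA share differed between these libraries by 3.05 percentage points, with 2.24 to 4.71 when 1 library was left out, by 0.36 with chromosome 11 U3 counted once, and by -0.71 without the 10 snoRNA genes of highest mean, most of which are U3 rows. The genotype difference in share was -1.998 points, with -3.62 to -1.01 when 1 library was left out. Counting U3 once and the restriction to a mean of at least 1000 were chosen after seeing the data, as were the fits of libraries 1 and 2 or 3 and 4 alone. Many box H/ACA members are at 0 in some libraries, which limits their values.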
